A study of Mus musculus with 15 samples.

Results

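A group of 8 platelet genes for signalling and the tubulin cytoskeleton (Gng11, Nrgn, Rgs18, Tubb1, Alox12, P2ry12, Plek and Fermt3) was followed in the RNA of plasma extracellular vesicles (EVs). The genes were chosen by symbol, with earlier results of these data known, and all 8 were present among the 43472 gene symbols of the count tables. The study sequenced EV RNA from wild type (WT), dystrophic (Dys) and hypertrophic (Hyp) mice to ask whether the transcripts carried by EVs differ with the state of the muscle. A set of 3 libraries came from WT mice (C57BL/6), 6 from Dys mice (Sgcb null, lacking the muscle membrane protein β-sarcoglycan) and 6 from Hyp mice. The labels give the genotype of the Hyp mice as MAGIC F1, whereas the methods of the study give Mstn-null for the sequenced libraries, so Hyp names only the condition. No drug treatment is named for any group, and the mice were 3 to 6 months old. Per the methods, each sample pooled the EVs of 2 to 3 mice, so that no value belongs to a single animal. The methods list fewer mice of each line for plasma collection than 6 separate pools would need. Whether the 6 Dys and the 6 Hyp libraries come from separate mice is therefore not known. The labels name serum and the methods name plasma as the source.

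Platelets have no nucleus and keep a store of messenger RNA from the megakaryocyte that made them. Agonists such as ADP and thrombin act on receptors coupled to heterotrimeric G proteins, whose βγ subunits and effectors raise calcium, activate protein kinase C and finally switch integrins on the surface to their binding form, while RGS proteins turn the G protein signal off. A ring of microtubules under the membrane holds the resting platelet in its disc shape. Platelets and megakaryocytes also shed a large share of the vesicles that circulate in blood.

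Library depth, as reads on gene rows, spanned 27227 to 32563362. The medians were 601506 for WT, 2419660 for Dys and 3513267 for Hyp libraries, and 797 to 8968 genes had at least 1 read. The shallowest library was WT 1, in which a count of 0 allows up to 3 counts or 110 counts per 1000000 reads (CPM), against 0.0921 CPM in the deepest, Dys 6. These limits cover counting error only, since the RNA was amplified before sequencing and copies are not independent molecules. Of the genes altered in the mouse lines, Sgcb had reads only in Hyp 3 (695 reads), and Mstn had none in any library, so that the Sgcb null label of the Dys libraries could not be checked against WT. For 6 libraries (Dys 4 to 6 and Hyp 1 to 3) the library number in the title did not match the number of the deposited counts, with Dys and Hyp crossed. Hyp 3, with its Sgcb reads, is among them, and an exchange would place it with the Sgcb null libraries. Groups follow the labels, and results were also computed with the 6 libraries exchanged or left out.

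The most abundant of the 8 genes were Gng11, the γ11 subunit of heterotrimeric G proteins, and Nrgn, neurogranin, a small protein that binds calmodulin when calcium is low. Their coding sequences are shown because both are short and because the ratio of their reads differed between libraries. Gng11 lies on chromosome 6 (mm10, 4003904 to 4008445, plus strand), with its coding exons at 4004316 to 4004411 and 4008035 to 4008157. Nrgn lies on chromosome 9 (37544492 to 37552904, minus strand), with its coding exons at 37552537 to 37552551 and 37545956 to 37546174. The capitals mark the last 4 codons before the stop codon in Gng11, which encode the signal for the lipid anchor of the γ subunit, and the codons of the calmodulin-binding IQ motif in Nrgn. The coding sequence of Gng11 has 222 bases, of which 43.2% are G or C, and that of Nrgn has 237 bases with 67.9% G or C.
Gng11: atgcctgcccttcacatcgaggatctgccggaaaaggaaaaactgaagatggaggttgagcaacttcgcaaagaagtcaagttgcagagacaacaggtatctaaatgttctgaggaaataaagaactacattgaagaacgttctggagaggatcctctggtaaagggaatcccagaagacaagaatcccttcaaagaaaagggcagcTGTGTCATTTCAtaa
Nrgn: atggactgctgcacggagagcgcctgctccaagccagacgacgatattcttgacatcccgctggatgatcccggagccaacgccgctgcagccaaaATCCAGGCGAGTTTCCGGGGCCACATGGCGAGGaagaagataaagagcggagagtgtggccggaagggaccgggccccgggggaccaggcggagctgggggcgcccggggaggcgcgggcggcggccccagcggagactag

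The 8 genes were among the most widely detected of all. They were chosen with earlier results of these data known, so this breadth is a description and no test. A total of 6 had at least 1 read in all 15 libraries, Tubb1 had reads in 14 and Fermt3 in 13. By comparison, 169 of the 13281 genes with any read (1.27%) were counted in all 15 libraries and 472 (3.55%) in at least 13. None of the 8 genes passed a test of detection between conditions in any of the 3 comparisons (Fisher's exact test, two-sided, adjusted over all 13281 genes). The smallest unadjusted p among them was 0.333, for Fermt3 in 6 of 6 Hyp and 2 of 3 WT libraries. No gene of the table passed (percent called 0 in each comparison), while 75, 18 and 25 genes (0.565%, 0.136% and 0.188%) had an unadjusted p under 0.05 in Dys against WT, Hyp against WT and Hyp against Dys. The smallest p that Fisher's exact test allows was 0.0119 in both comparisons with WT and 0.00216 in Hyp against Dys. A gene could pass the adjustment only if very many genes tied at that value, and a gene read in every library cannot differ in detection. The absence of calls is therefore no evidence of equal detection.

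Several lists of related genes, set up together with the 8, were detected less broadly. Of 12 other G protein subunits only Gnas, the stimulatory α subunit, was in all 15 libraries, and Gng10 was in none. Among 8 other platelet receptors no gene reached 12 libraries, the widest being F2rl2 in 11 (thrombin receptor PAR3) and P2rx1 in 10 (an ATP-gated channel), and the thromboxane receptor Tbxa2r had no read. All 15 libraries held Rgs10 but no other of 7 further RGS genes, Tuba4a but no other of 13 further tubulins, and Alox5ap, the partner protein of 5-lipoxygenase, but no other of 11 eicosanoid genes. Of 14 integrin activation genes, Tln1 (talin-1) and Rap1b (the small GTPase upstream of talin) were in all 15 libraries. Among relatives of the 8 genes, Fermt1, Plek2, Alox12b, Aloxe3 and Rgs16 had no read in any library, while Fermt2 had reads in 5, Alox15 and Rgs1 in 3 each and Rgs2 in 6.

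**Figure D1:**
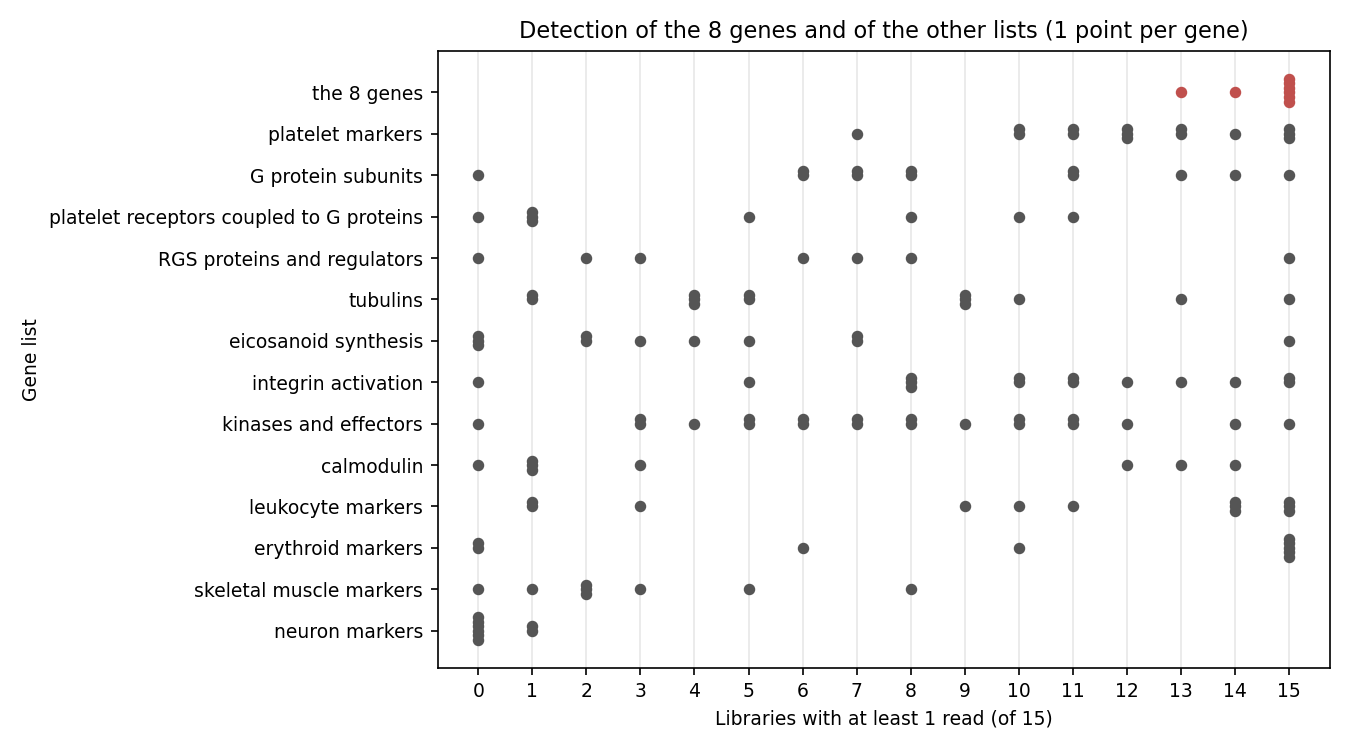
Each point is a gene, placed by the number of libraries (of 15) in which it had at least 1 read, with a row for each gene list. The 8 genes (red) lie at 13 to 15 libraries, while the lists of related genes spread from 0 to 15 and 6 of the 8 neuron markers lie at 0.

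Levels of different genes were compared per exon length, as transcripts per 1000000 transcripts (TPM). On this scale Gng11 had a mean of 14280 TPM (SD 6911, n = 15), rank 10 among all genes, and Nrgn had 8240 TPM (SD 3678), rank 14. Rgs18 followed with 2239 TPM (SD 1492) and Plek with 1072 TPM (SD 676). P2ry12 (647 TPM, SD 384), Tubb1 (640 TPM, SD 730) and Alox12 (569 TPM, SD 474) were close to each other, less than 1 SD apart, and Fermt3 came last with 172.5 TPM (SD 184). Neighbours in this order other than Nrgn and Rgs18 lay within the sum of their SDs of each other.

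The reads of the 8 genes summed to between 8820 CPM in Dys 2 and 39432 CPM in Hyp 1. The 3 WT libraries held 33643, 28020 and 17862 CPM, the Dys libraries 8820 to 25210 CPM with a median of 13253, and the Hyp libraries 17488 to 39432 CPM with a median of 20579. The 3 conditions overlapped. The summed platelet markers (14 other genes, such as Pf4, Ppbp and Itga2b, all detected) lay at 20410 to 32390 CPM in WT, 9809 to 21840 in Dys and 17570 to 36310 in Hyp. Erythroid markers held 22930 to 88150 CPM in WT, 47210 to 155900 in Dys and 30000 to 88290 in Hyp, with the hemoglobin genes leading and Epor and Klf1 at 0, and 12 leukocyte markers held 2021 to 6306 CPM over all libraries. CPM are shares of a library, and fewer platelet vesicles and less RNA per vesicle cannot be told apart. The part of these markers in the results for the 8 genes was not tested.

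Nrgn is best known from neurons. Of 8 neuron markers, 6 (Snap25, Syt1, Rbfox3, Map2, Slc17a7 and Syn1) had no read in any library, and the summed markers did not exceed 28.6 CPM, against at least 2074 CPM of Nrgn. Skeletal muscle markers did not exceed 294.6 CPM in any library, and Myh4 had no read.

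**Figure D2:**
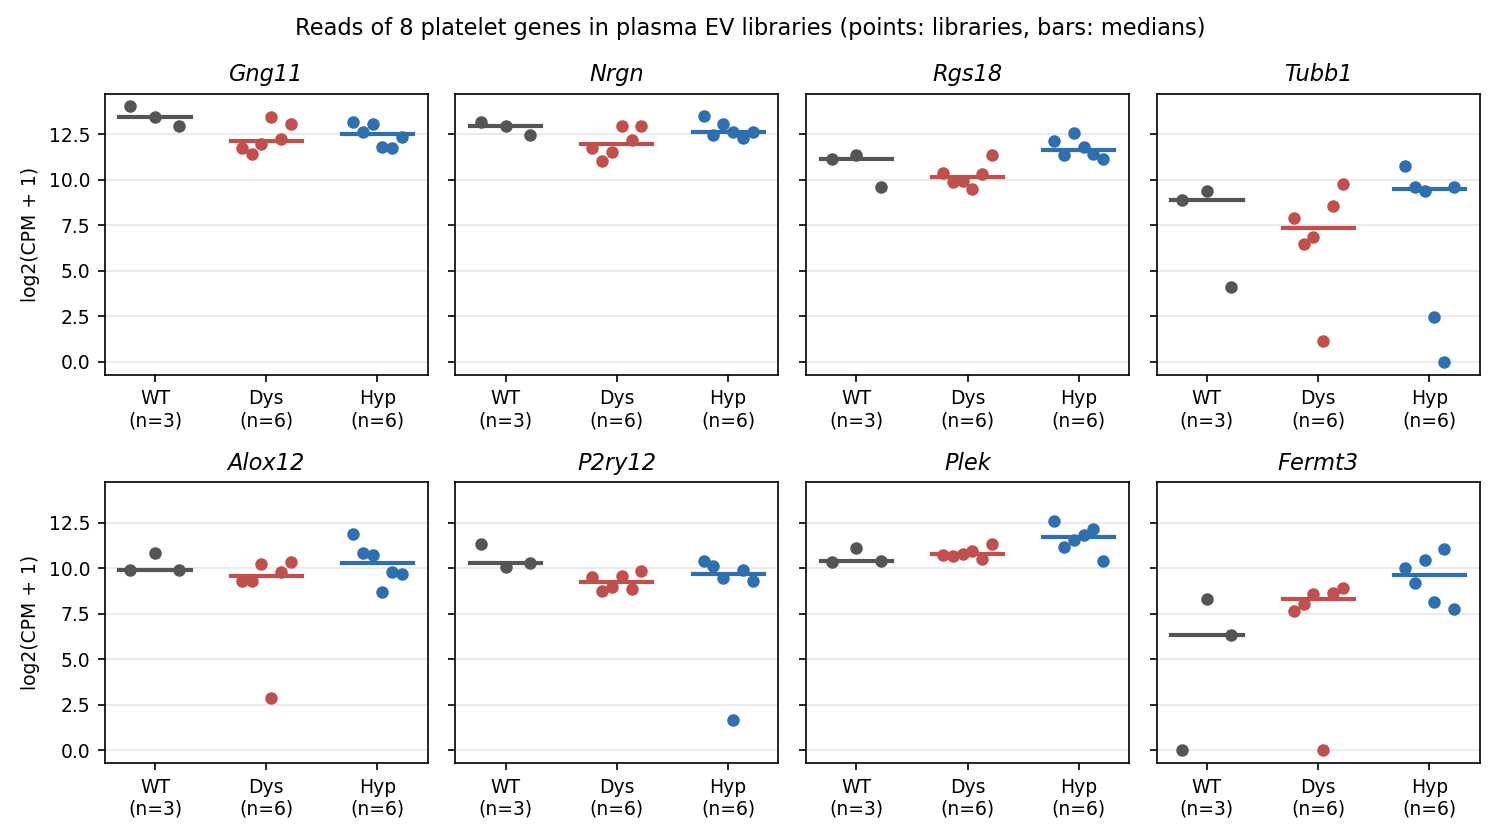
Points are libraries and bars are medians of log2(CPM + 1) for each of the 8 genes in WT (n = 3), Dys (n = 6) and Hyp (n = 6) libraries. Gng11, Nrgn, Rgs18 and Plek stay within a narrow band, while single libraries of Tubb1, Alox12, P2ry12 and Fermt3 drop to or near 0.

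None of the 8 genes passed an adjusted p of 0.05 in any comparison of levels by edgeR's quasi-likelihood test, by DESeq2 or by an exact permutation test of log2 CPM. By edgeR 1, 2 and 1 of the 6887 genes passed in Dys against WT, Hyp against WT and Hyp against Dys (0.0145%, 0.029% and 0.0145%), namely mt-Rnr2, both mt-Rnr1 and mt-Rnr2, and Hbb-bs. DESeq2 called 19.1%, 22.2% and 4.69% of the genes, and the permutation test 0%. The smallest p that the permutation test allows is 0.0238 for 6 against 3 libraries and 0.00216 for 6 against 6. It could call a gene after adjustment only if very many genes tied near that value, so nothing is concluded from its 0%. The median log2 fold change of the 8 genes was -0.42 in Dys against WT (2 above 0), 0.36 in Hyp against WT (5 above 0) and 0.64 in Hyp against Dys (7 above 0, Gng11 at -0.22 being the exception). Over the genes counted in both conditions of a comparison the medians were 0.07, -0.22 and -0.28, and over all genes tested 1.38, 0.66 and -0.52, with many genes at 0 throughout one condition. Exchanging the crossed libraries gave all but Nrgn of the positive values in Hyp against Dys a negative sign.

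**Figure D3:**
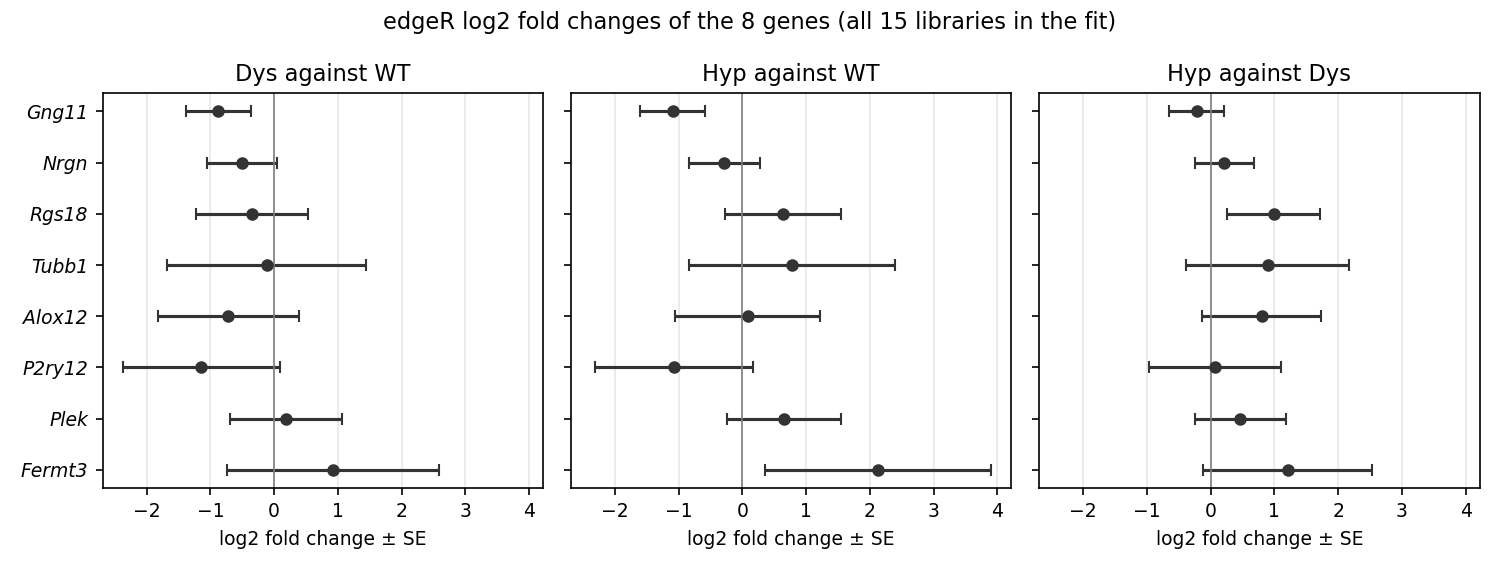
Points are edgeR log2 fold changes and bars are their SE for the 8 genes in each comparison of conditions, with 15 libraries in the fit. The values lie between -1.14 and 2.13, and no gene passed the adjusted threshold.

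Gng11 was read at 16895, 11313.5 and 7835 CPM in the WT libraries, the first of these (WT 1) from only 460 reads. The Dys libraries ranged from 2738 to 11392 CPM (median 4477) and the Hyp libraries from 3429 to 9124 CPM (median 5813). In all, 4 Dys and 4 Hyp libraries lay below the lowest WT library, but the conditions overlapped. In the edgeR quasi-likelihood test over 6887 genes the log2 fold change was -0.88 (SE 0.51, adjusted p = 0.432) in Dys against WT and -1.09 (SE 0.51, adjusted p = 0.430) in Hyp against WT. With only the 9 matching libraries these values were -2.01 (SE 0.68, edgeR's adjusted p = 0.842) and -1.90 (SE 0.68, edgeR's adjusted p = 0.605). Its Hyp against WT comparison was the only case among the 8 genes of an unadjusted p under 0.05 in the main edgeR fit of all 15 libraries. Without TMM normalization, edgeR's unadjusted p was 0.0153 for Gng11 in Dys against WT, 0.0221 for Gng11 in Hyp against WT and 0.0232 for Rgs18 in Hyp against Dys. With only the 9 matching libraries, edgeR's unadjusted p was 0.00314 for Gng11 in Dys against WT and 0.00501 in Hyp against WT. For Nrgn in Dys against WT, edgeR's unadjusted p in these 9 libraries was 0.0286. With the crossed libraries exchanged, edgeR's unadjusted p was 0.035 for Gng11 in Dys against WT. None of these passed after adjustment. At an unadjusted p under 0.05 in the main fit, 1.55% of all genes tested were higher and 0.465% lower in Dys than in WT, 1.67% higher and 6.35% lower in Hyp than in WT, and 0.566% higher and 11.4% lower in Hyp than in Dys.

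Nrgn lay at 9145, 7958 and 5586 CPM in WT. It ranged from 2074 to 7894 CPM (median 4111) in Dys and from 5017 to 11816 CPM (median 6243) in Hyp. Hyp 1 was the highest library and Dys 2 the lowest, and all 6 Hyp libraries were above the Dys median, yet these conditions overlapped. Its log2 fold changes were small beside their errors, with -0.50 (SE 0.55) in Dys against WT, -0.28 (SE 0.55) in Hyp against WT and 0.22 (SE 0.46) in Hyp against Dys. With only the 9 matching libraries the value in Dys against WT was -1.62 (SE 0.74, edgeR's adjusted p = 0.842), that in Hyp against WT -0.85 (SE 0.73) and that in Hyp against Dys 0.77 (SE 0.73).

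Across the libraries, Gng11 and Nrgn had the most similar pattern of any pair among the 8 genes. The root mean square difference of their log2 CPM, each centred on its own mean, was 0.449, against 4.53 for the least similar pair, Tubb1 and Fermt3. Dividing the reads of Gng11 by those of Nrgn in the same library left a ratio of 1.85, 1.42 and 1.40 in WT, of 0.997 to 1.44 (median 1.20) in Dys and of 0.566 to 1.14 (median 0.803) in Hyp. All 6 Hyp libraries lay below all 3 WT libraries. The ratio was chosen after the values had been seen, so it is a description and no test is given. Of the 6887 genes, 0.203% had reads per Nrgn read that were lower in every Hyp than in every WT library, and the shares were 0.0436% for Dys below WT and 0.174% for Hyp below Dys, where Gng11 overlapped. With the 6 crossed libraries exchanged, Hyp ranged from 0.566 to 1.44 and overlapped WT, and with only the 9 matching libraries Hyp (0.566 to 0.835) lay below Dys (0.997 to 1.41) and WT.

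**Figure D4:**
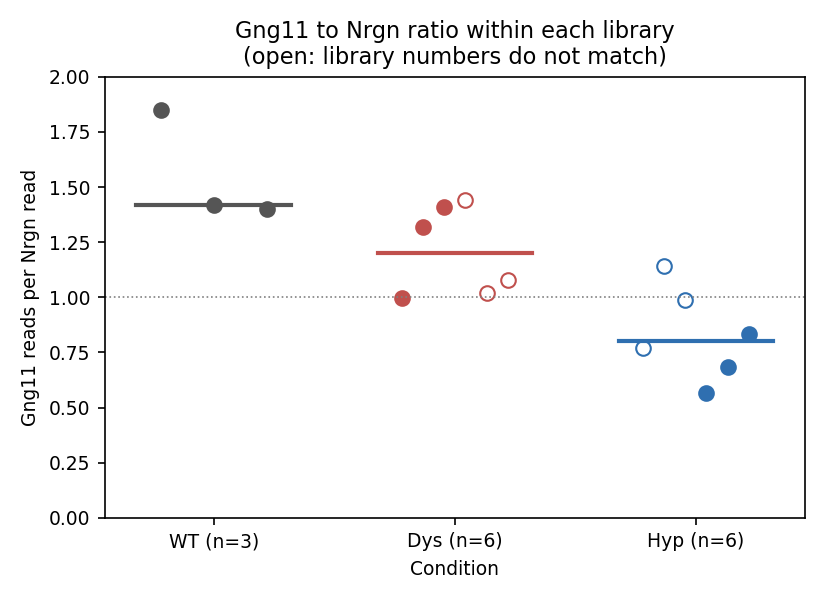
Points are libraries and bars are medians of the Gng11 reads per Nrgn read in WT, Dys and Hyp, with open points for the 6 libraries whose numbers do not match and a dotted line at equal reads. The WT libraries sit at 1.40 to 1.85 and the Hyp libraries at 0.566 to 1.14.

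Per exon length, Gng11 and Nrgn together made up most of the TPM of the 8 genes in every library. Gng11 alone held 58.6% to 66.4% of it in WT, 47.9% to 65.4% in Dys and 35.3% to 49.2% in Hyp. It ranked first in 14 of the 15 libraries, and in Hyp 4 Nrgn was first with 39.5% against 35.3% for Gng11. Rgs18 held 1.89% (Dys 4) to 16.3% (Hyp 4) and Plek 1.06% (WT 1) to 9.80% (Hyp 5).

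**Figure D5:**
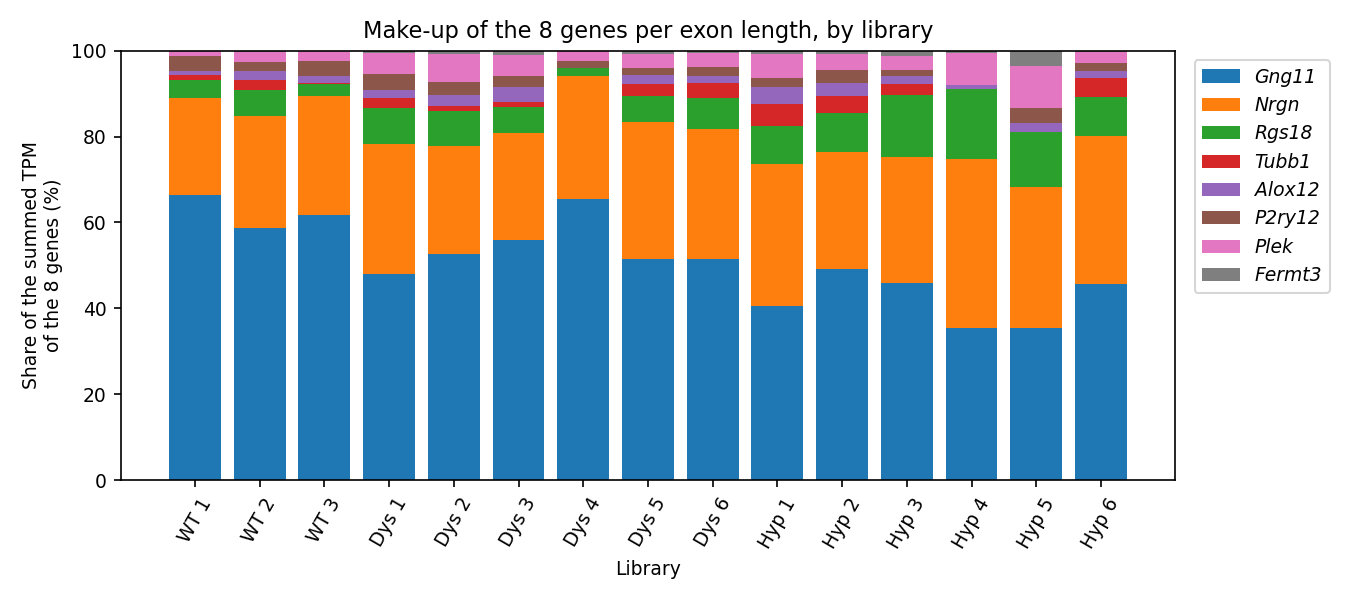
Each bar is a library, split by the share (%) of the summed TPM of the 8 genes that each gene holds. Gng11 (blue) holds 35.3% to 66.4% and is the largest share in 14 of 15 libraries, and Nrgn (orange) is the largest in Hyp 4.

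P2ry12 encodes the platelet ADP receptor that couples to Gi and is the target of clopidogrel. Its level was 2571, 1088 and 1260 CPM in WT (mean 1640, SD 811), 426 to 914 CPM in Dys (median 624, mean 639, SD 201) and 2.22 to 1338 CPM in Hyp (median 832, mean 793, SD 465.8). The 2571 CPM of WT 1 came from only 70 reads. All 6 Dys libraries lay below the lowest WT library, a pattern shared by 0.276% of all genes tested, while 0.479% were higher in every Dys than in every WT library. By CPM, no other of the 8 genes separated any conditions, beside 0.174% of genes higher and 0.276% lower in Hyp than in WT and 0.0145% higher and 0.145% lower in Hyp than in Dys. In Hyp 4 only 1 read of P2ry12 was counted where 429 would correspond to the mean CPM of the other Hyp libraries. The log2 fold change was -1.14 (SE 1.24, adjusted p = 0.816) in Dys against WT and -1.08 (SE 1.24, adjusted p = 0.801) in Hyp against WT. An exact permutation test, added after the data had been seen, used log2 CPM of TMM-normalized library sizes. It gave an unadjusted two-sided p of 0.0238 in both comparisons, the smallest that 6 against 3 libraries allow, and an adjusted p of 1. That p is reached only where the conditions compared do not overlap on this scale, unlike the CPM of Hyp and WT given here. Gng11 had the same permutation p in Hyp against WT, and no other of the 8 genes had one under 0.05. By that test 0.61% of genes were higher and 0.363% lower in Dys than in WT, 0.174% higher and 0.682% lower in Hyp than in WT, and 0.102% higher and 2.6% lower in Hyp than in Dys. With the crossed libraries exchanged, Hyp 1 (1338 CPM) and Hyp 2 (1117 CPM) would count as Dys and overlap WT.

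Rgs18 encodes a regulator that shortens G protein signals in platelets and megakaryocytes. It lay at 2277, 2669 and 786 CPM in WT, at 729 to 2655 CPM (median 1135) in Dys and at 2244 to 6060 CPM (median 3174) in Hyp. In 4 of 6 Hyp libraries the level was above every Dys library, and the conditions overlapped only through Dys 6. Hyp against Dys gave a log2 fold change of 0.99 (SE 0.73, adjusted p = 0.9998), the largest relative to its error of the 8 genes in that comparison, and the exact permutation test gave p = 0.0541 (unadjusted). The value turned to -0.35 with the 6 crossed libraries exchanged and stayed at 0.99 with only the 9 matching libraries.

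Plek encodes pleckstrin, the major substrate of protein kinase C in platelets. Its levels were 1322, 2194 and 1345 CPM in WT, 1485 to 2631 CPM (median 1762) in Dys and 1350 to 6118 CPM (median 3379) in Hyp. Plek varied less than the other genes among the Dys libraries, with a coefficient of variation of 21.4% against 31.4% to 111% for the other 7. A total of 4 Hyp libraries lay above every Dys library and 5 above every WT library, and the log2 fold change was 0.47 (SE 0.71) in Hyp against Dys and 0.65 (SE 0.90) in Hyp against WT.

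Alox12 encodes the platelet 12-lipoxygenase, which oxygenates arachidonic acid. It was read at 955, 1819 and 953 CPM in WT, at 6.22 to 1280 CPM (median 764) in Dys and at 410 to 3816 CPM (median 1293) in Hyp. The low value was Dys 4, with 10 reads where 1491 would correspond to the mean CPM of the other Dys libraries. The log2 fold change was 0.80 (SE 0.93) in Hyp against Dys and turned to -0.97 with the crossed libraries exchanged.

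Fermt3 encodes kindlin-3, which binds the cytoplasmic tail of β integrins and is needed to activate them. It had 0, 312 and 79.8 CPM in WT, 0 to 486 CPM (median 323) in Dys and 213 to 2166 CPM (median 817) in Hyp. The 0 in WT 1 allows up to 110 CPM at the depth of that library, while the 0 in Dys 4 allows up to 1.87 CPM. In 4 of 6 Hyp libraries the level was above every Dys library, and the log2 fold change was 1.21 (SE 1.32) in Hyp against Dys and 2.13 (SE 1.78, adjusted p = 0.578) in Hyp against WT, the largest of the 8 genes in size. Without WT 2 the latter was 3.67, and without WT 1 it was 1.56.

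Tubb1, the platelet and megakaryocyte β1-tubulin of the marginal band, had few or no reads in more libraries than any other of the 8 genes. It lay at 477, 667 and 16.6 CPM in WT, at 1.24 to 859 CPM (median 176) in Dys and at 0 to 1750 CPM (median 724) in Hyp. Few reads were counted in WT 3 (10), Dys 4 (2), Hyp 4 (2) and Hyp 5 (0), so that only 12 libraries had at least 4 reads. With all libraries no fold change exceeded its error, with -0.12 (SE 1.56), 0.78 (SE 1.62) and 0.90 (SE 1.28) in Dys against WT, Hyp against WT and Hyp against Dys. Without WT 2 the value in Hyp against WT was 2.09 (SE 2.19), and without WT 3 it was 0.23. Without Dys 6 the value in Hyp against Dys was 1.83 (SE 1.49, edgeR's adjusted p = 0.9997), and without Hyp 1 it was 0.39.

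The gaps fell in particular libraries. Dys 4 had 10 reads of Alox12, 2 of Tubb1 and 0 of Fermt3, but 18326 of Gng11 and 12699 of Nrgn, at a depth of 1608699 reads and with 1103 genes detected. In Hyp 4 few reads were counted for P2ry12 (1 read) and Tubb1 (2), beside 1663 reads of Plek and 1632 of Rgs18. The Dys 6 library, with 8968 genes detected, had every one of the 8 genes at 485.6 CPM or above.

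No gene of the related lists passed by edgeR either. Among G protein subunits, receptors, RGS genes, tubulins, eicosanoid genes, integrin activation genes, kinases and effectors and calmodulin genes, the only unadjusted p under 0.05 were those of Gnai3 (an inhibitory α subunit) in Dys and in Hyp against WT, Gng2 in Hyp against WT and Rgs2 in Dys against WT. All 3 were at 0 in every WT library, so no fold change is given. Gnai3 had reads in 5 of 6 Dys and 3 of 6 Hyp libraries, Gng2 in 4 of 6 Hyp libraries and Rgs2 in 5 of 6 Dys libraries. By mean CPM, which is not corrected for exon length and so does not rank genes by transcript level, the related genes with the most reads were Gnas (1772 CPM) and Gnai2 (661) of the G proteins, F2rl2 (161.5) and P2rx1 (146.5) of the receptors, Rgs10 (1038) and Rgs2 (52.05) of the RGS genes, and Tubb5 (476) and Tuba4a (417) of the tubulins, as means over 15 libraries.

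By the same count of reads, the highest were Alox5ap (849 CPM) and Tbxas1, thromboxane synthase (79.5), for eicosanoids, Rap1b (1610) and Rasgrp2 (573), the exchange factor for Rap1, for integrin activation, Syk (192) and Prkcq (190) for the kinases, and Calm2 (578) for calmodulin. None of these had an unadjusted p under 0.05 in a comparison. Among the marker lists, Hbb-bs was lower in Hyp than in Dys in the main edgeR fit (log2 fold change -1.01, SE 0.20, adjusted p = 0.00306). It did not pass with the crossed libraries exchanged or with only the 9 matching libraries. Ppbp had a log2 fold change of 0.94 (SE 0.36, edgeR's adjusted p = 0.123) in Hyp against Dys in the main fit.

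Likeness to the 8 genes was measured as the root mean square difference between a gene's centred log2 CPM and the mean of the 8, over 15 libraries and 672 other genes detected in at least 12 of them. The closest were Mkrn1, a RING finger ubiquitin ligase (0.726), Odc1, the first enzyme of polyamine synthesis (0.791), the 14-3-3 adaptor Ywhaz (0.804), the peroxiredoxin Prdx6 (0.847), the platelet chemokine Ppbp (0.854), cyclophilin A (Ppia, 0.891), Rap1b (0.899) and the cell adhesion protein Nptn (0.900), against a median of 3.15. The mean of the 8 itself had an SD of 1.12, so a gene that hardly varied would also score near that value. A small difference therefore need not mean a shared pattern. The mean of the 8 log2 values was highest in Hyp 1 and lowest in Dys 4. Dys 4 had few or no reads of Alox12, Tubb1 and Fermt3, yet its summed level of the 8 genes was 22822 CPM. Of the 8 genes themselves, Rgs18 lay nearest to their mean (0.877) and Fermt3 farthest (3.02), and the points share library depth, so these are descriptions.

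Sequence shared with other genes was rare. Of all 50-base windows in the transcripts, none of Gng11, Nrgn, Rgs18, Tubb1 and P2ry12 also occurred in another gene, while 0.372% of those of Alox12, 3.41% of Plek and 1.08% of Fermt3 did. Plek shares 199 exon bases with Cnrip1 on the opposite strand, a gene with a mean of 0.755 CPM, P2ry12 shares 9 with Med12l and Fermt3 shares 89 with Trpt1, both without reads, and whether the counting used strand is not stated.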

How the data were processed

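RNA-seq of plasma EVs was analysed in 15 libraries. Per the methods of the study, the RNA was preamplified and sequenced as single reads of 50 bases, and TopHat aligned the reads to mm10. The submitters' processing notes also name HTSeq and DESeq, and the annotation is not given in the sources used here. The authors deposited raw counts of reads per gene symbol, with no normalization. The labels and the methods differ on the kit and the sequencer. The 5 summary lines of each table (57.9% to 99.2% of its total) were left out. Their share was 99.2% in WT 1, 57.9% in WT 2 and 96.2% in WT 3. It was 63.7% to 74% in the Dys and 63.2% to 87.4% in the Hyp libraries.

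CPM used all gene rows, and TPM used exon lengths of GENCODE M21. Gene positions and coding sequences come from the same annotation of mm10, and all 8 genes matched. No 2 libraries were duplicates. Differential expression was tested with edgeR 4.0.16 (R 4.3.3, limma 3.58.1), by the quasi-likelihood test after filterByExpr and TMM, in 1 fit of all 15 libraries with Benjamini-Hochberg adjustment (threshold 0.05), and detection (at least 1 count) with two-sided Fisher's exact tests (scipy 1.17.1). Log2 CPM used a prior count of 2, with TMM-normalized library sizes in the permutation test only. Both tests were tested on simulated data. For edgeR the required recovery was set only at a spread far below that of these libraries, whose biological coefficient of variation was 3.04. It therefore does not show that edgeR would find a change in these libraries. Alternatives were DESeq2 1.42.0, other normalizations and filters, exchanged or omitted libraries and each library left out. The exact permutation test and the restriction to libraries of at least 1000000 reads were chosen after seeing the data. The labels do not say that libraries are separate biological replicates, and separate pools of mice are not assured, so p-values measure the spread between libraries.

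The 8 genes and all lists were chosen with earlier results of these data known. Named were all 8, any gene past the adjusted threshold, and from each list the genes past an unadjusted p of 0.05 (at most 3 a list and comparison) and the 2 highest by mean CPM, besides the 8 closest genes by likeness. Detection in lists and single extremes were named after their values were seen. A gene that this rule names from the lists is not reported here.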

Additional observations from a re-analysis of the deposited data

Results flagged for a closer look

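Among the Dys libraries, Dys 6 stood apart in Rgs18, at 2655 CPM, with the next library at 1346 CPM. The gap was 0.68 of the range of the 6 libraries, beyond the 95% limit of Dixon's test. It was the only such library in the 20 groups tested, and chance gives about 1 in 20. Dys 6 was the deepest library and 1 of the 6 with crossed numbers. Without it, the log2 fold change of Rgs18 in Hyp against Dys was 1.49, with edgeR's adjusted p = 0.757.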

How the results depend on the processing

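No call of the 8 genes changed in any alternative, while signs did. In Dys against WT, exchanging the crossed libraries gave log2 fold changes of 0.39 (Rgs18), 0.60 (Tubb1) and 0.14 (Alox12), no filter gave 0.09 (Tubb1), the 9 matching libraries -0.26 (Plek), and libraries of at least 1000000 reads, where WT 2 is the only WT library and is assumed to vary like the others, -0.44 (Plek) and -0.29 (Fermt3). In Hyp against WT, DESeq2 gave 0.04 (Nrgn), the 9 matching libraries -0.01 (Rgs18), -0.41 (Tubb1) and -1.34 (Alox12), the exchange -0.82 (Alox12), the permutation test -0.83 (Tubb1) and -0.26 (Alox12), and the deep libraries, again with 1 WT library, -0.17 (Alox12). In Hyp against Dys, the exchange gave 0.27 (Gng11), -0.35 (Rgs18), -0.43 (Tubb1), -0.97 (Alox12), -0.27 (P2ry12), -0.21 (Plek) and -0.39 (Fermt3), the 9 libraries 0.11 (Gng11), -0.29 (Alox12) and -0.33 (P2ry12), and Gng11 was 0.06 without TMM, 0.08 in DESeq2 and 0.20 in the deep libraries. The title number series as a covariate gave -0.04 (P2ry12) and the permutation test -0.10 (Tubb1) and -1.11 (P2ry12). Detection of Fermt3 in Hyp against Dys was -16.7 percentage points with the exchange, and in Dys against WT it ranged from -16.7 (without WT 1) to 33.3 when each library was left out. The cause was not tested.

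Leaving out each library gave ranges of -0.85 to 0.22 (Rgs18), -1.06 to 1.14 (Tubb1) and -0.14 to 0.54 (Plek) in Dys against WT, -0.29 to 0.59 (Alox12) in Hyp against WT, and -0.38 to 0.06 (Gng11) and -0.18 to 0.33 (P2ry12) in Hyp against Dys. The number of genes passing ranged from 1 to 2, 1 to 3 and 0 to 2 in Dys against WT, Hyp against WT and Hyp against Dys. It was 1315, 1528 and 323 with DESeq2 and 0 in each comparison with no filter (580, 1120 and 4382 genes at an unadjusted p under 0.05), without mitochondrial and hemoglobin genes (127, 529 and 815) and with the permutation test (67, 59 and 186). Without TMM the median log2 fold change over all genes was 1.57, 1.02 and -0.37, against 1.38, 0.66 and -0.52. In Dys against WT the number passing was 3 without TMM, 2 with the exchange, 3 with the 9 libraries and 4 with the deep ones (1 WT library), and in Hyp against Dys 0 with the exchange (344 at an unadjusted p under 0.05), 0 with the 9 libraries (155) and 6 with the deep ones.

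No paired analysis was possible because the replicate numbers were given in accession order and pair no libraries. WT has 3 libraries, and the batch of the counts' numbers cannot be told apart from Hyp.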
